A study of Mus musculus with 2 samples.

Results

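The 7 CXC chemokine genes Cxcl1, Cxcl2, Cxcl9, Cxcl10, Cxcl13, Cxcl14 and Cxcl16 were listed by name, and all 7 were found among the 31053 genes of a single-cell RNA sequencing count matrix. They were described in the cells that had at least 200 detected genes and at most 20% mitochondrial UMIs (unique molecular identifiers, each standing for 1 captured transcript). The cells were pooled from 5 mice with EAE (experimental autoimmune encephalomyelitis, in which the brain and spinal cord are inflamed) and from 5 healthy mice. All were 10-week-old wild-type C57BL/6J females, and how EAE was induced is not given in the labels used here. The tissue was the cribriform plate, the perforated bone under the olfactory bulbs, taken with those bulbs and part of the nasal lining. After mechanical dissociation, the sort aimed at lymphatic endothelial cells, live and positive for podoplanin and CD31 but negative for the leukocyte protein CD45.

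Each pool is 1 sample, and the matrix joins both under barcode suffixes 2 and 1. No label or file used here ties a suffix to EAE or healthy mice. The suffixes are therefore called library 2 and library 1, with no condition assigned to either. A side is 1 library without replicates, so nothing was tested: each difference below compares these libraries only, and the 95% intervals (exact Poisson for levels and folds, exact binomial for shares) cover counting error only.

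CXC chemokines are small secreted proteins that steer leukocytes through G protein-coupled receptors. Cxcl1 and Cxcl2 attract neutrophils through CXCR2, and their genes are classical targets of NF-kappaB. Cxcl9 and Cxcl10 are interferon-induced ligands of CXCR3, a receptor of activated T cells and NK cells. Cxcl13 attracts B cells through CXCR5, Cxcl14 is made by many resting epithelia, and Cxcl16 is a membrane-bound ligand of CXCR6 that ADAM proteases can shed. In the inflamed central nervous system, microglia and other macrophages are known sources of several of them.

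Library 2 kept 1922 of 2434 barcodes and 20282053 UMIs, and library 1 kept 3406 of 3838 barcodes and 25766058 UMIs. Kept cells had a median of 9782.5 UMIs in library 2 and 7334 in library 1, and median mitochondrial shares of 3.74% and 1.54%. The cells went against the sort gate. The 7 markers of lymphatic endothelium summed to 6.90 CPM (counts per 1000000 UMIs of the cells) in library 2, with Mmrn1 and Reln at 0, and to 28.3 CPM in library 1. Those of microglia, macrophages that live within brain tissue, came to 3254 CPM in library 2 and to 9506 CPM in library 1, and all 7 of them were found in both. Other myeloid lists differed too: monocyte markers came to 162 CPM in library 2 (6 of 6 detected) and 11.8 CPM in library 1 (6 of 6), border macrophage markers to 28.7 (6 of 7) and 92.6 CPM (7 of 7), and dendritic cell markers to 38.9 (6 of 7) and 287 CPM (6 of 7). Of the dendritic cell list, 555 of 788 UMIs in library 2 and 7189 of 7391 in library 1 lay in microglia-like cells. For the monocyte list it was 2423 of 3295 UMIs and 105 of 304. For the border macrophage list it was 188 of 583 UMIs and 215 of 2386. The part of these lists in the differences between the libraries below was not tested. The libraries also formed largely separate clusters: among microglia-like cells, clusters 2, 4, 10 and 12 were mostly library 2, and clusters 1, 3, 5, 6, 7 and 8 were mostly or wholly library 1. A cluster held by 1 library may be that library and not a cell type. The libraries shared 8 barcodes, 7 of them in kept cells of both. Kept cells with a shared barcode numbered 8 in library 2, with 32 CXC UMIs, and 7 in library 1, with 13.

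Promoters are shown for the 2 neutrophil attractants and the 2 CXCR3 ligands, since the members of the first pair were both lower in library 2 and those of the second both higher. Each line is the stretch of 250 bases before the RefSeq transcription start (build GRCm38.p6), on the strand of the gene, at chr5:90890995-90891244 (Cxcl1, plus strand), chr5:90903649-90903898 (Cxcl2, plus), chr5:92328080-92328329 (Cxcl9, minus) and chr5:92348890-92349139 (Cxcl10, minus). Capitals mark letters that match 1 of 4 motifs searched on both strands: the kappaB consensus, the core of the interferon-stimulated response element (GAAA, any 2 bases, GAAA), the core of the gamma-activated site (TTCNNNGAA) and the AP-1 site (TGANTCA).
Cxcl1: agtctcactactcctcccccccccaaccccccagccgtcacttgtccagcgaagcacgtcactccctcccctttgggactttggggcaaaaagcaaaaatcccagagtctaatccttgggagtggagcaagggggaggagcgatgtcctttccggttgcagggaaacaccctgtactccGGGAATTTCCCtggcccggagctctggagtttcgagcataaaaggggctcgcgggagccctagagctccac
Cxcl2: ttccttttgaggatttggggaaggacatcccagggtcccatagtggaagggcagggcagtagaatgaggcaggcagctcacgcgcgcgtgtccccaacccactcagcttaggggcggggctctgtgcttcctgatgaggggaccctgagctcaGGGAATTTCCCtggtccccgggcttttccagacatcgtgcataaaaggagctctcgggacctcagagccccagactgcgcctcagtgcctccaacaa
Cxcl9: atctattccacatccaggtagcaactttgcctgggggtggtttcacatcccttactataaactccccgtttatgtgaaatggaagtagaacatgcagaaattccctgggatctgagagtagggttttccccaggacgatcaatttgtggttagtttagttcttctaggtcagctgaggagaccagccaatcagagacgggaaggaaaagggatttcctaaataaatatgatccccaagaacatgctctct
Cxcl10: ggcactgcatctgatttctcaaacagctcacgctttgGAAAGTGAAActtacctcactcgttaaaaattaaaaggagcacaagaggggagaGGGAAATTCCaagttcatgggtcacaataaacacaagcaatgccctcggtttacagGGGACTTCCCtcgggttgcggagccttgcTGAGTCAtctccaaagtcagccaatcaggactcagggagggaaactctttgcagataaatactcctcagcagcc
Cxcl1 and Cxcl2 hold the same kappaB letters, GGGAATTTCC, 71 to 62 bases before the start of Cxcl1 and 97 to 88 bases before that of Cxcl2, and each run also matches on the opposite strand, shifted by 1 base. Cxcl10 holds kappaB letters from 159 to 150 and from 103 to 94 bases before its start, GAAAGTGAAA from 213 to 204, and an AP-1 match from 74 to 68. None of the 4 motifs was in this window of Cxcl9. Of 32851 RefSeq promoters of the same length, 3.90% hold the kappaB consensus, 2.98% the interferon element's core, 7.02% TTCNNNGAA and 6.75% TGANTCA. A match describes letters and not binding.

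Over all kept cells, Cxcl9, Cxcl13 and Cxcl16 were at least 2-fold higher in library 2, and Cxcl2 and Cxcl1 at least 2-fold lower. That is 3 of 7 members higher, against 14.2% of the 13891 genes with at least 20 UMIs, and 2 of 7 lower, against 8.37% of those genes. Cxcl10, at 1.89-fold, lay just outside the 2-fold limit, and Cxcl16, at 2.16-fold, just inside it. The median log2 ratio of library 2 over library 1, with a pseudocount of 10 CPM, was 0.90 over the members and 0.02 over all those genes. The 7 genes together had 29694 UMIs (1464 CPM) in library 2 and 22384 UMIs (869 CPM) in library 1. Of the CXC UMIs captured, Cxcl10 made up 49.1% in library 2 and 43.7% in library 1. The next largest shares were 21.7% each for Cxcl9 and Cxcl16 in library 2, and 34.9% for Cxcl2 in library 1. These are shares of captured transcripts, and capture may differ between genes.

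**Figure D1:**
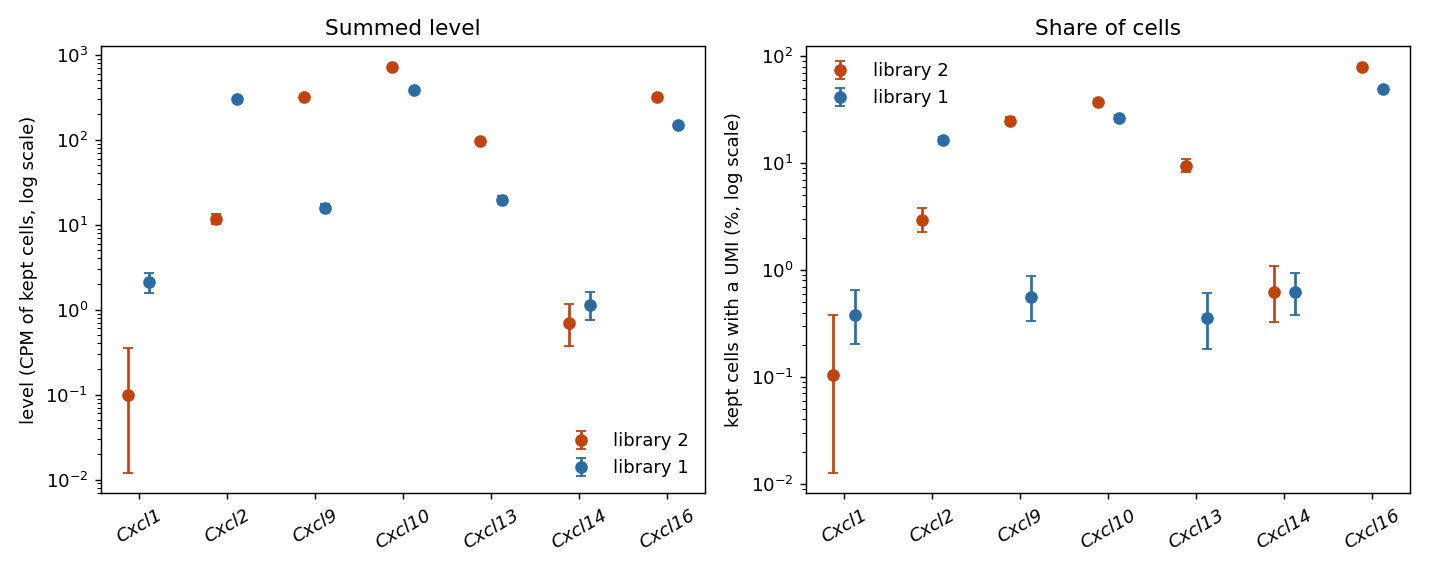
Level (left, CPM of the kept cells) and share of kept cells with a UMI (right, %) of each CXC chemokine gene in library 2 (orange) and library 1 (blue), on log axes. Bars are exact 95% intervals for counting error, and each point is 1 library. Cxcl9 and Cxcl13 stand far higher in library 2, Cxcl2 far lower, and the Cxcl14 intervals overlap.

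The feature that most members had in common was that few cells carried most of their transcripts. For each gene, the cells were ordered by their UMIs of it, and the smallest number that together held 50% of those UMIs was counted. These cells are called its richest cells. In library 2, 4 of the 5 members with at least 20 UMIs there had their richest cells within 5% of the kept cells, against 42.9% of 12484 genes. In library 1, 6 of 7 did, against 50.4% of 12420 genes. By this 5% limit, the exception in both was Cxcl16. A gene with few UMIs has a small share by arithmetic, so each member was also set beside the genes with at least as many UMIs in the same library. Only 1 of 197 such genes had a smaller share than Cxcl10 in library 2, and 1 of 370 in library 1. For Cxcl9 it was 2 of 406 genes in library 2, and for Cxcl2 1 of 454 genes in library 1. The median shares of those genes were 28.0% and 25.3% for the Cxcl10 sets, 25.1% for the Cxcl9 set and 24.2% for the Cxcl2 set. Cxcl16 was less of an exception here. A smaller share than its 14.98% in library 2 was found for 17 of 407 genes (median 25.1%). For its 10.2% in library 1 it was 20 of 974 genes (median 20.4%). The 7 genes summed had 50% of their UMIs in 107 cells of library 2 (5.57%) and 124 cells of library 1 (3.64%).

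**Figure D2:**
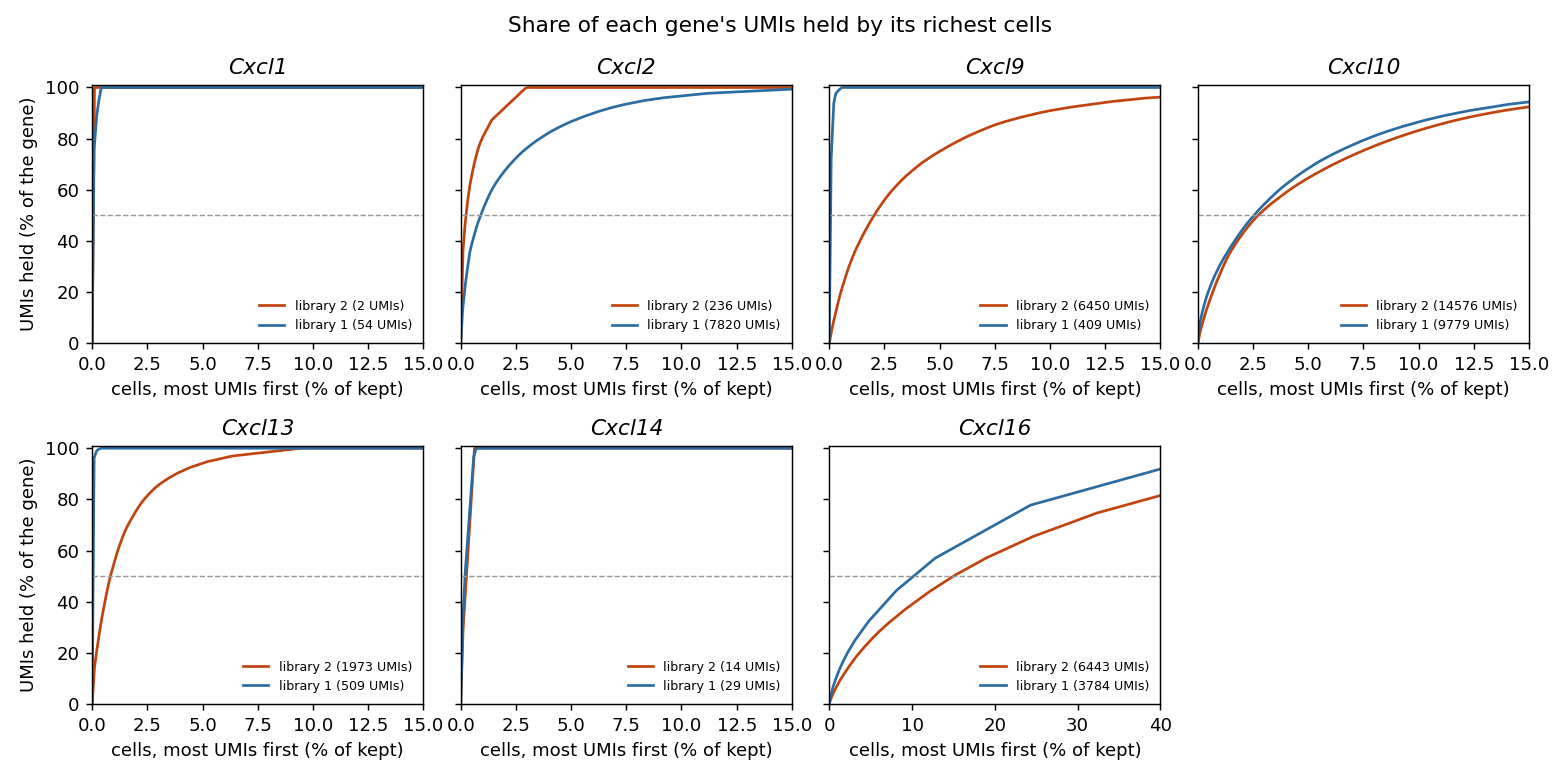
Cumulative share of each gene's UMIs (vertical axis, %) held by kept cells ordered from most to fewest UMIs of that gene (horizontal axis, % of kept cells; the Cxcl16 panel runs to 40%), for library 2 (orange) and library 1 (blue). The dashed line is 50%. The curves of Cxcl10 nearly coincide, at 2.76% and 2.55% of the cells, whereas those of Cxcl2, Cxcl9 and Cxcl13 lie apart and Cxcl16 climbs slowest.

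Cxcl1 (ENSMUSG00000029380) was barely detected. It had 2 UMIs in 2 cells of library 2 (0.0986 CPM; 0.0119 to 0.356) and 54 UMIs in 13 cells of library 1 (2.10 CPM; 1.57 to 2.73). The level was 21.3-fold lower in library 2, with a counting interval of 5.61 to 180. Of the 54 UMIs in library 1, 19 and 17 lay in single border macrophage-like cells, the macrophages of the brain's surfaces, and 38 in 4 cells of that cluster. The same pair of cells held 153 and 151 Cxcl2 UMIs. Without the richest cell of each library, Cxcl1 stood at 1 UMI in library 2 and 35 UMIs in library 1. Without the 5% of cells with most UMIs it was 12.2-fold lower in library 2, and in microglia-like cells alone, with 1 UMI in library 2 and 5 UMIs in library 1, 3.49-fold lower.

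Cxcl2 (ENSMUSG00000058427), the other CXCR2 ligand, was the member with the strongest tilt to library 1. It had 236 UMIs in library 2 (11.6 CPM; 10.2 to 13.2) and 7820 UMIs in library 1 (304 CPM; 297 to 310). The level was 26.1-fold lower in library 2 (22.9 to 29.8; log2 ratio -3.86). A UMI was found in 57 cells of library 2 (2.97%; 2.25% to 3.83%) and 559 cells of library 1 (16.4%; 15.2% to 17.7%), so both the number of cells and the UMIs per cell differed. Positive cells held a median of 1 UMI in library 2 and 4 UMIs in library 1, and at most 52 and 486. At least 10 UMIs were found in 5 cells of library 2 and 156 cells of library 1. With every cell thinned to 1000 UMIs, 0.787% of 1907 cells and 8.10% of 3319 cells had a UMI.

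The richest Cxcl2 cells were 5 in library 2 (0.260% of kept cells) and 31 in library 1 (0.910%). In library 1 the border macrophage-like cells, cluster 16, had the highest level of any cluster with at least 20 cells, 3387 CPM (3223 to 3557), and 25 of these 43 cells had a UMI. They made up 1.26% of the cells of library 1, 20.5% of its Cxcl2 UMIs and 11 of the 31 richest cells. The dividing cells of cluster 12 came next at 1760 CPM, but 486 of their 516 UMIs lay in 1 cell that held 34905 UMIs in all. Microglia-like cluster 1 followed at 441 CPM (424 to 458) with 34.7% of the UMIs, then clusters 7 (317 CPM), 6 (246 CPM) and 8 (210 CPM). Of the microglia-like clusters with at least 20 cells of library 1, clusters 3 and 5 were lowest, at 63.9 and 29.6 CPM. In library 2 the order was different: unnamed cluster 11 stood at 50.7 CPM, cluster 2 at 14.1 CPM and cluster 4 at 3.68 CPM. No cell of library 2 was in cluster 16. In microglia-like cells alone, the level was still 30.5-fold lower in library 2 (8.27 CPM, against 253 CPM in library 1).

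The richest Cxcl2 cells of library 1 held border macrophage markers at 616 CPM, against 84.8 CPM in its other cells, with all 7 of that list detected. For the microglia list the values were 6097 CPM and 9557 CPM. They were also deeper, with a median of 10653 UMIs against 7317. The part of these values in the Cxcl2 result was not tested. Nfkbia, the feedback inhibitor of NF-kappaB, stood at 4733 CPM in the richest cells and 2630 CPM in the others, and the cytokine gene Tnf at 897 CPM and 319 CPM.

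Cxcl9 (ENSMUSG00000029417) was the member with the strongest tilt to library 2. It had 6450 UMIs in library 2 (318 CPM; 310 to 326) and 409 UMIs in library 1 (15.9 CPM; 14.4 to 17.5), a 20.03-fold higher level in library 2 (18.1 to 22.2; log2 ratio 3.66). A UMI was found in 480 cells of library 2 (24.97%; 23.1% to 27.0%) and 19 cells of library 1 (0.558%; 0.336% to 0.870%). The difference was therefore mostly one of how many cells had any Cxcl9: positive cells held a median of 4 UMIs in both libraries, and at most 178 and 199. Thinned to 1000 UMIs, the share with a UMI was 10.02% in library 2 and 0.271% in library 1.

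Single cells set the Cxcl9 level of library 1. Of its 409 UMIs, 199 lay in 1 cell and 65 in another, both of cluster 11, which held 140 cells of library 2 and 3 of library 1. Without the richest cell of each library the level was 310 CPM in library 2 and 8.16 CPM in library 1, a 37.9-fold difference. Without the 5% of cells with most UMIs it was 92.5-fold, since 74 UMIs were then left in library 1. In microglia-like cells alone it was 35.3-fold (179 CPM and 5.07 CPM), and in thinned cells 35.5-fold.

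In library 2, Cxcl9 peaked in cluster 11, at 1654 CPM (1597 to 1713), with a UMI in 110 of 140 cells. This cluster was 7.28% of the cells of library 2 and held 48.6% of its Cxcl9 UMIs. Its highest folds included Acod1, Ccl5, Cd40 and Il12b, genes of activated macrophages and dendritic cells, and the monocyte marker Ly6i but no microglia marker stood among the first 10, although 5 of the 7 microglia markers passed 100 CPM. It was therefore left unnamed. Cluster 9 held low-depth cells whose leading genes over both libraries together mixed several cell types (blood endothelium, red blood cells, fibroblasts and bone). Over all kept cells, red blood cell markers had only 13 UMIs in library 2, against 7065 in library 1. The blood endothelium list had 553 and 1253 UMIs, the fibroblast list 4512 and 543, and the osteoblast list 695 and 31. In library 2, Cxcl9 stood at 603 CPM in cluster 9 (535 to 678). Interferon-response cluster 10 (264 CPM; 241 to 289), dividing cluster 12 (217 CPM; 192 to 245) and cluster 4 (199 CPM; 188 to 210) followed, and among these 3 each interval overlapped that of its neighbour. Cluster 2 was lower, at 138 CPM, and the olfactory ensheathing glia-like cells of cluster 13, the glia of the olfactory nerve, were at 51.5 CPM.

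**Figure D3:**
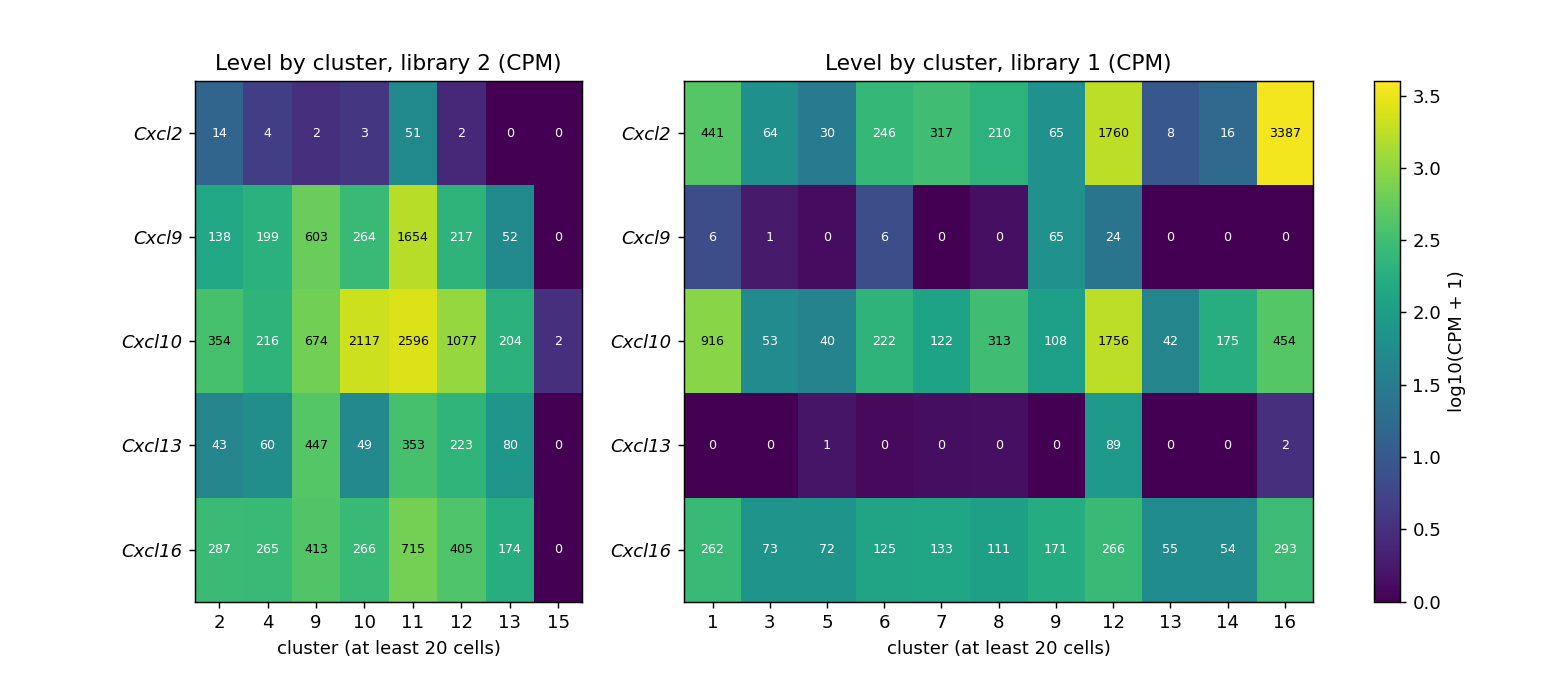
Level of 5 CXC chemokine genes by cluster in library 2 (left) and library 1 (right), as CPM of the cells of that cluster rounded to whole numbers, with colour on a log10(CPM + 1) scale. Clusters with at least 20 cells in the library are shown, so most clusters appear on 1 side only. Cluster 11 is high for Cxcl9, Cxcl10 and Cxcl16 in library 2, and cluster 16 is highest for Cxcl2 in library 1.

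The richest Cxcl9 cells were 39 in library 2 (2.03% of kept cells; 1.45% to 2.76%) and 2 in library 1 (0.0587%). Of the 39, 23 were in cluster 11 and 5 in cluster 4. The microglia list had 1793 CPM in these cells, against 3294 CPM in the rest of library 2, and the monocyte list 370 CPM, against 157 CPM, with 4 of its 6 markers detected. The dendritic cell list had 106 CPM, against 36.99 CPM, with 2 of 7 detected. Their median depth was 13754 UMIs, against 9743. The part of these cell types and of depth in the Cxcl9 result was not tested. Across the cells of library 2, the genes most like Cxcl9 were Ccl5 (Pearson r = 0.49 of log-scaled UMIs), Dnase1l3 (0.47), Cxcl16 (0.40), Cybb (0.39) and Fth1 (0.38). These correlations are over 1922 cells of 1 library, share its depth, and are a description.

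Cxcl10 (ENSMUSG00000034855), the other CXCR3 ligand measured, was abundant in both libraries. It had 14576 UMIs in library 2 (719 CPM; 707 to 730) and 9779 UMIs in library 1 (380 CPM; 372 to 387), a 1.89-fold higher level in library 2 (1.85 to 1.94). A UMI was found in 716 cells of library 2 (37.3%; 35.1% to 39.5%) and 909 cells of library 1 (26.7%; 25.2% to 28.2%). At least 10 UMIs were found in 280 and 269 cells, and the highest cells held 367 and 320. Unlike Cxcl9, it thus had many strongly positive cells on both sides. Its richest cells were 53 in library 2 (2.76%) and 87 in library 1 (2.55%), and 2.83% and 2.53% after thinning. In microglia-like cells alone Cxcl10 was 1.41-fold higher in library 2 (549 CPM, against 389 CPM in library 1).

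Different clusters carried Cxcl10 in each library. In library 2 it stood at 2596 CPM in cluster 11 (2524 to 2670) and 2117 CPM in cluster 10 (2050 to 2185), the cluster whose highest folds were interferon-induced genes such as Rsad2 and Ifit1. These held 33.8% and 26.4% of its UMIs. Dividing cluster 12 stood at 1077 CPM, cluster 9 at 674 CPM, cluster 2 at 354 CPM, cluster 4 at 216 CPM and the ensheathing glia-like cells at 204 CPM, the last pair with overlapping intervals. In library 1, the 10 cells of cluster 10 stood at 4875 CPM and the 20 dividing cells at 1756 CPM. Microglia-like cluster 1 stood at 916 CPM (892 to 940) and held 57.6% of the UMIs in 22.5% of the cells. Its highest folds included Gadd45b and Il1a. Border macrophage-like cells stood at 454 CPM. Of the microglia-like clusters with at least 20 cells of library 1, clusters 3 and 5 were lowest, at 52.7 and 39.6 CPM. A UMI was also found in 29 of 65 epithelium-like cells of library 1, at 175 CPM. These cells, of cluster 14, had a median of only 831 UMIs. Over both libraries, 6 of the 7 microglia markers reached 100 CPM in cluster 14, and 6 in the ensheathing glia-like cluster 13. The part of microglial transcripts in the chemokine values of both clusters was not tested.

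The richest Cxcl10 cells were higher in Tnf and Irf1 and lower in Ifngr1 than the other cells of their library. Tnf stood at 938 CPM in the richest cells of library 2 and 387 CPM in its other cells, and at 696 CPM and 314 CPM in library 1. Irf1, an interferon-induced transcription factor, stood at 642 CPM and 301 CPM in library 2, and at 447 CPM and 226 CPM in library 1. Ifngr1 stood at 400 CPM and 566 CPM in library 2, and at 479 CPM and 659 CPM in library 1. The richest cells were also deeper, at a median of 13237 UMIs against 9740 in library 2 and 9305 UMIs against 7286 in library 1, and the part of depth was not tested. In library 2 the genes most like Cxcl10 were Gbp5 (r = 0.41 over 1922 cells), Gpr84 (0.39), Icam1 (0.39), Tlr2 (0.38) and Cd40 (0.37). In library 1 they were Gadd45b and Il1a (r = 0.36 each over 3406 cells), Ehd1 (0.31), and Nfkbia and Tnfaip3 (0.30 each).

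Cxcl9 and Cxcl10 shared cells in part. In library 2, 234 cells held both, which is 48.8% of the Cxcl9 cells and 32.7% of the Cxcl10 cells. Among the richest cells the overlap was 7, or 17.9% of the 39 for Cxcl9 and 13.2% of the 53 for Cxcl10. The cell with most Cxcl9 held 178 UMIs of it and 30 of Cxcl10, the next 139 and 1, and the cell with most Cxcl10 held 25 of Cxcl9 and 367 of Cxcl10. Most of the richest cells of each gene were thus not among those of the other, and r over all 1922 cells was 0.23. The overlaps were still larger than the shares over all kept cells. Of these, 37.3% held Cxcl10 and 24.97% Cxcl9, and 2.76% and 2.03% were among the richest cells. The part of depth in this was not tested. Cxcl2 and Cxcl10 in library 1 gave a like picture: 267 cells held both (47.8% of the Cxcl2 cells and 29.4% of the Cxcl10 cells). The richest cells overlapped in 3 (9.68% of 31 and 3.45% of 87). Over all kept cells of library 1, 26.7% held Cxcl10 and 16.4% Cxcl2, and 2.55% and 0.910% were among the richest cells.

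**Figure D4:**
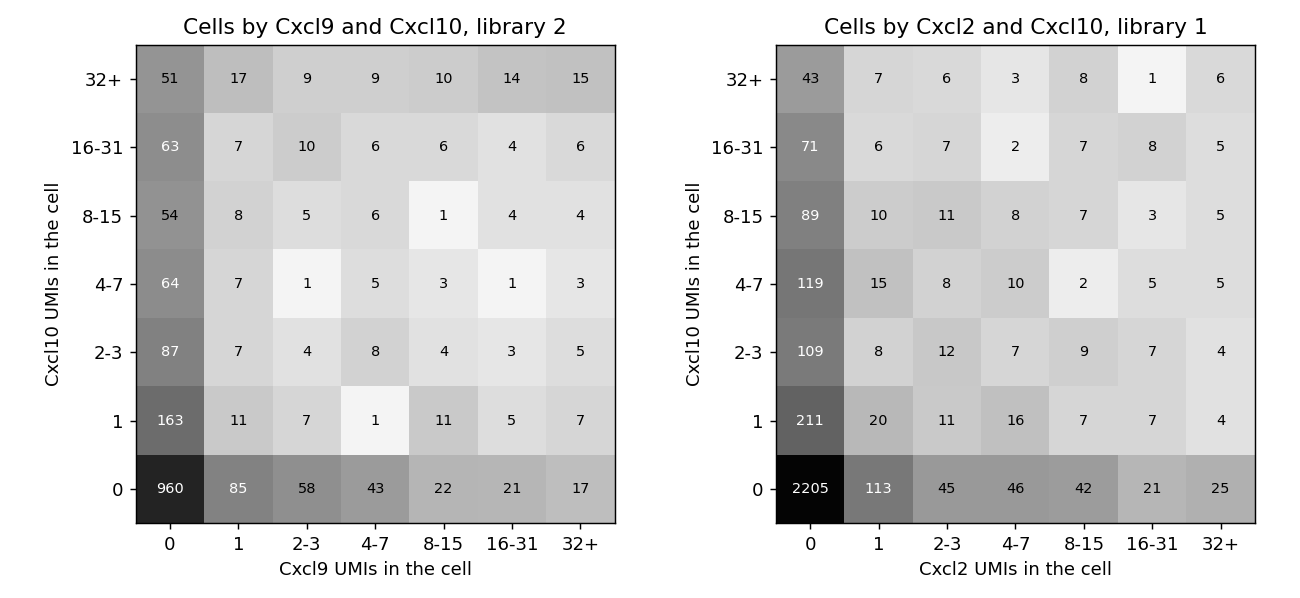
Number of kept cells by their UMIs of 2 chemokine genes: Cxcl9 (horizontal) and Cxcl10 (vertical) in library 2 on the left, Cxcl2 (horizontal) and Cxcl10 (vertical) in library 1 on the right. Each square gives its number of cells, with darker shades for more cells. In library 2, 960 cells held neither gene, 51 held at least 32 Cxcl10 UMIs and no Cxcl9, and 15 held at least 32 of both. In library 1, 6 cells held at least 32 of both.

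Cxcl13 (ENSMUSG00000023078), the B cell attractant, had 1973 UMIs in library 2 (97.3 CPM; 93.0 to 102) and 509 UMIs in library 1 (19.8 CPM; 18.1 to 21.5). The level was 4.92-fold higher in library 2 (4.46 to 5.44; log2 ratio 1.85). A UMI was found in 182 cells of library 2 (9.47%; 8.20% to 10.9%) and 12 cells of library 1 (0.352%; 0.182% to 0.615%). In library 1, 257 UMIs (50.5%) lay in 1 cell with 62960 UMIs in all, and 208 (40.9%) in a second cell with 12100. The next cells held 25, 11 and 1 UMIs. Without the richest cell of each library the fold was 8.93 (87.5 CPM and 9.80 CPM). It was 9.50 without the deepest 5% of cells, 10.8 in thinned cells and 2.97 in microglia-like cells alone.

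In library 2 the richest Cxcl13 cells numbered 16 (0.832% of kept cells; 0.477% to 1.35%), 6 of them in cluster 11, and the cell with most held 199 UMIs. By cluster, Cxcl13 stood at 447 CPM in cluster 9 (388 to 512) and 353 CPM in cluster 11 (327 to 381). These intervals were close but separate, and they leave out how unevenly the cells carried it. In cluster 9, 12 of 103 cells had a UMI, and single cells held 81 and 68 of its 209 UMIs. In cluster 11, 39 of 140 cells had a UMI. Cxcl13 stood at 223 CPM in dividing cluster 12 and 80.2 CPM in the ensheathing glia-like cells (42 UMIs in 2 of 58 cells). It stood at 60.03 CPM in cluster 4, 48.9 CPM in cluster 10 and 42.8 CPM in cluster 2. Cluster 10, high for Cxcl10, was thus near cluster 2 and cluster 4 for Cxcl13. Of the Cxcl13 cells of library 2, 102 (56.0%) also held Cxcl9, which are 21.3% of the Cxcl9 cells. No gene reached r = 0.3 with Cxcl13 there, and Cxcl9 came closest at 0.298.

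The few Cxcl9 and Cxcl13 transcripts of library 1 lay largely in cells that clustered with library 2. In library 1, 40 cells (1.17% of its cells, with 2.19% of its UMIs) were in the microglia-like clusters held mostly by library 2 (2, 4, 10 and 12) or in unnamed cluster 11. They held 503 of the 509 Cxcl13 UMIs (98.8%) and 316 of the 409 Cxcl9 UMIs (77.3%). Most of these lay in few of the 40 cells. Single cells of clusters 10 and 4 held 257 and 208 Cxcl13 UMIs, and single cells of cluster 11 held 199 and 65 Cxcl9 UMIs. The 40 cells held 13.8% of the Cxcl10, 7.12% of the Cxcl2 and 5.23% of the Cxcl16 UMIs of library 1. The members and the pathway genes described here had been set aside before clustering. None of these Cxcl9 and Cxcl13 UMIs came from barcodes that both libraries share: without those barcodes library 1 kept 409 Cxcl9 and 509 Cxcl13 UMIs.

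Cxcl14 (ENSMUSG00000021508) was close to the limit of detection. It had 14 UMIs in 12 cells of library 2 (0.690 CPM; 0.377 to 1.16) and 29 UMIs in 21 cells of library 1 (1.13 CPM; 0.754 to 1.62). The fold was 0.613 with an interval of 0.299 to 1.20, so no difference was detectable at this depth. The ensheathing glia-like cells held 9 of the 14 UMIs in library 2 and 4 of the 29 in library 1, at 17.2 and 16.9 CPM. The barcodes left out by the cell filter held it at 11.1 CPM in library 2 and 41.7 CPM in library 1, above the kept cells of either library.

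Cxcl16 (ENSMUSG00000018920), the ligand of CXCR6, was the broadly detected member. It had 6443 UMIs in library 2 (318 CPM; 310 to 326) and 3784 UMIs in library 1 (147 CPM; 142 to 152), a 2.16-fold higher level in library 2 (2.08 to 2.25; log2 ratio 1.06). A UMI was found in 1512 cells of library 2 (78.7%; 76.8% to 80.5%) and 1669 cells of library 1 (49.0%; 47.3% to 50.7%). Thinned to 1000 UMIs, the shares were 24.0% and 11.8%. The cell with most held 44 UMIs in library 2 and 33 in library 1, and 133 and 30 cells held at least 10. Its library 2 total, 6443 UMIs, is nearly that of Cxcl9, 6450 UMIs, but 288 cells (14.98%) held 50% of it, against 39 cells for Cxcl9. In library 1 its richest cells numbered 347 (10.2%). In microglia-like cells alone the fold was 1.96 (285 CPM and 146 CPM), under the 2-fold limit.

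Between the named and numbered clusters of library 2 with at least 50 cells, Cxcl16 ranged from 174 to 715 CPM, where Cxcl9 ranged from 51.5 to 1654 CPM. This leaves out the 37 olfactory sensory neuron-like cells, where both genes were at 0. In library 2 Cxcl16 stood at 715 CPM in cluster 11 (677 to 754), with a UMI in 139 of 140 cells, and at 413 CPM in cluster 9 and 405 CPM in cluster 12. Clusters 2, 10 and 4 stood at 287, 266 and 265 CPM with overlapping intervals, and the ensheathing glia-like cells at 174 CPM. In library 1, among clusters with at least 20 cells, border macrophage-like cells (293 CPM), cluster 12 (266 CPM) and cluster 1 (262 CPM) were highest, with overlapping intervals. Clusters 7, 6 and 8 stood at 133, 125 and 111 CPM, and clusters 3 and 5 at 72.7 and 72.3 CPM. Of its richest cells, 92 of 288 in library 2 were in cluster 11 and 189 of 347 in library 1 in cluster 1.

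The richest cells of Cxcl16 were 14.98% of library 2 but held most of the richest cells of 3 other members. Of the richest cells of Cxcl9 there, 31 of 39 (79.5%) were also among those of Cxcl16, as were 33 of 53 (62.3%) for Cxcl10 and 13 of 16 (81.3%) for Cxcl13. These are 10.8%, 11.5% and 4.51% of the 288 richest Cxcl16 cells. In library 1 it was 34 of 87 (39.1%) for Cxcl10 and 15 of 31 (48.4%) for Cxcl2, or 9.80% and 4.32% of the 347. The richest Cxcl16 cells were deeper than the others, at a median of 13482.5 UMIs against 9351 in library 2 and 8843 UMIs against 7209 in library 1, and the part of depth was not tested. The genes most like Cxcl16 were Cd52 (r = 0.43 over 1922 cells), Cxcl9 (0.40), Fth1 (0.38), Ctsz and Cyba (0.36 each) in library 2. In library 1 they were Il1a (r = 0.34 over 3406 cells) and Bcl2a1b (0.30).

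At least 1 CXC gene was detected in 85.3% of kept cells in library 2 and 62.2% in library 1, and at least 1 other than Cxcl16 in 53.3% and 36.0%. Apart from Cxcl16, exactly 1 member was detected in 690 cells of library 2 (35.9%) and 939 cells of library 1 (27.6%), and 3 or more were rare in library 1: 14 cells held 3, 1 held 4 and 2 held 5. In library 2, 79 cells held 3 and 5 held 4. Olfactory sensory neuron-like cells were taken as cells that should lack these chemokines and so give the background of free RNA. In library 2, none of the 37 held a UMI of Cxcl2, Cxcl9, Cxcl13 or Cxcl16, which allows a share of up to 8.11% by the 3-count limit and up to 9.49% by the exact interval, and 1 held a Cxcl10 UMI (2.70%; 0.0684% to 14.2%). Their median depth was 11227 UMIs. The shares of Cxcl9, Cxcl10 and Cxcl16 in library 2 lie above these limits. The share of Cxcl13, at 9.47%, lies between 8.11% and 9.49% and could not by itself be told apart from the background. Those of Cxcl1, Cxcl2 and Cxcl14 lie below. By level, 0 UMIs in these neuron-like cells allow up to 7.81 CPM by the exact interval. Cxcl13, at 97.3 CPM in library 2, and Cxcl2, at 11.6 CPM (10.2 to 13.2), stood above that level. Cxcl1, at 0.0986 CPM, and Cxcl14, at 0.690 CPM, stood below it. In library 1, 1 of 7 such cells, with a median depth of 13704 UMIs, held a Cxcl16 UMI and 1 a Cxcl14 UMI. That is too few cells to set a background, since 0 of 7 allows up to 42.9%.

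Among the other CXC ligands, 4 of the 7 found in the gene list had at least 20 UMIs over both libraries. Of these 4, 1 was at least 2-fold higher in library 2 and 3 at least 2-fold lower. Over all 13891 genes with at least 20 UMIs, 14.2% were higher and 8.37% lower by the same limit. Pf4, platelet factor 4, which border macrophages also express, stood at 0.542 CPM in library 2 and 15.6 CPM in library 1. Cxcl12, the ligand of CXCR4, had 2.02 CPM in library 2 and 7.61 CPM in library 1. Cxcl5, which also draws neutrophils, had 4.34 CPM in library 2 and 0.233 CPM in library 1. The 88 Cxcl5 UMIs of library 2 lay in 0.104% of its cells. Receptors were scarce: of 8, 4 had at least 20 UMIs. None of these was 2-fold higher and 2 were 2-fold lower, against 14.2% and 8.37% of all 13891 genes. Cxcr3, the receptor of Cxcl9 and Cxcl10, had 23 UMIs in library 2 and 60 in library 1, and Cxcr2, that of Cxcl1 and Cxcl2, 10 and 32 UMIs. Cxcr6, the receptor of Cxcl16, had 16 UMIs in library 2 and 0 in library 1, where 0 allows up to 0.116 CPM. Cxcr4 had 78 UMIs in each. The 7 T or NK cell markers came to 1.77 CPM in library 2 and to 0.699 CPM in library 1, and the 6 neutrophil markers to 197 CPM in library 2 (3 of 6 detected) and 166 CPM in library 1 (2 of 6 detected). Of these, Ly6g, Retnlg and Mmp8 were at 0 in both, and S100a8 was at 0 in library 1. Their part in the results was not tested.

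Among genes upstream of the chemokines, the interferon gamma receptor chain gene Ifngr1 stood at 560 CPM in library 2 and 652 CPM in library 1, and Irf1 at 313 CPM and 234 CPM. Neither was called. The NF-kappaB input had 6 genes, of which none was 2-fold higher and 3 were 2-fold lower. Over all 13891 genes with at least 20 UMIs the shares were 14.2% higher and 8.37% lower. Nfkbia stood at 954 CPM in library 2 and 2661 CPM in library 1, its relative Nfkbiz at 196 CPM and 632 CPM, and Tnf, which was not called, at 406 CPM and 328 CPM. The sheddase genes of Cxcl16 differed little, with Adam10 at 96.2 CPM and 106 CPM and Adam17 at 91.1 CPM and 75.3 CPM. Zfp36, whose product speeds the decay of chemokine mRNAs, stood at 1873 CPM and 2751 CPM, and none of these 3 was called.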

How the data were processed

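Counts were not normalized by the authors: the deposited matrix gives raw UMI counts per gene and barcode. Per the file headers it was made with Cell Ranger (software version 3.1.0, format version 2). UMI-tools and bcl2fastq are listed without version in the submitters' processing notes. For the aligner settings, build, annotation and any equalising of depth between libraries, the sources used here say nothing. Promoter sequences and coordinates are RefSeq's (GRCm38.p6), with 6 of the 7 members matched by symbol.

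The members and gene lists were chosen with earlier results of these data known. The cell filter (200 genes or more, 20% mitochondrial UMIs or less) removed 512 barcodes of library 2 and 432 of library 1. No doublet caller was run, and values were recomputed without the 5% of cells with most UMIs. UMIs were summed per library or cluster and divided by the total (CPM). The pseudocount of log2 ratios was 10 CPM, and folds had none. A gene was called at 2-fold or more with at least 20 UMIs over both libraries. Cells were clustered on 2000 variable genes, without the members and pathway lists, using 30 principal components, 15 neighbours and the Leiden method at resolution 1. A cluster took a name from at least 3 listed markers among its 50 highest folds, and otherwise microglia-like from 5 of 7 microglia markers at 100 CPM, unless another list had more markers among its 10 highest folds. Names describe transcripts only. Likeness was Pearson's r of ln(1 + UMIs per 10000), named from 0.3.

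Besides the members, each pathway list was represented by up to 3 of its most abundant genes, with Cxcr2, Cxcr3 and Cxcr6 always given. Cxcl11 was not used here. Some results of the pathway lists are not reported here. The motifs, the counts of library 1 cells in clusters of library 2, and the pathway genes in richest cells were chosen after the data were seen. Summing, calling and the count of richest cells were tested on simulated data. The tools were Scanpy 1.11.5 and igraph 0.11.9 under Python 3.11.15, with SciPy 1.17.1, NumPy 2.4.6 and Matplotlib 3.10.9. EAE was not compared with healthy mice, since the libraries could not be mapped.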

Additional observations from a re-analysis of the deposited data

Results flagged for a closer look

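CXC chemokine UMIs were also found in the barcodes that the cell filter left out, which no comparison above uses. The 512 barcodes of library 2 held 165 UMIs of the 7 genes, and the 432 barcodes of library 1 held 51, in both cases more than the 3 counts that a count of 0 would allow. In library 2, 85 of them were Cxcl10 (85.8 CPM), 37 Cxcl9 (37.4 CPM) and 27 Cxcl16 (27.3 CPM), all below the level in its kept cells. In library 1, 21 were Cxcl14 (41.7 CPM, in 15 barcodes) and 14 Cxcl10 (27.8 CPM), and Cxcl9 was at 0, which allows up to 5.96 CPM. Cxcl14 stood higher there than in kept cells in both libraries, with 11 UMIs (11.1 CPM) in the barcodes left out of library 2, against 0.690 CPM in its kept cells, and 41.7 CPM in library 1, against 1.13 CPM.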

How the results depend on the processing

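No paired analysis was possible because each library is 1 pool with no replicate number. The count of members at least 2-fold lower in library 2 was 2, and thinning each cell to 1000 UMIs made it 1, since Cxcl1 then had 0 and 6 UMIs. In microglia-like cells the 2 were Cxcl2 and Cxcl14. The count of members at least 2-fold higher was 3 and ran from 2 to 4: Cxcl10 joined them without the 5% deepest cells (2.06-fold) and with mitochondrial, ribosomal protein and haemoglobin genes left out of the totals (2.05-fold), and Cxcl16 fell out in microglia-like cells (1.96-fold). No log2 ratio changed sign under the alternatives run: of 70 recomputed values, 49 moved by less than the counting interval and 21 by more. The 49 include the values without a minimum of UMIs, a setting that cannot change a log2 ratio. Of 112 recomputed shares of cells that hold 50% of a gene's UMIs, 19 moved by more, as did 28 of 98 recomputed shares of cells with a UMI. The 112 include shares for 90% of the UMIs, which cannot be smaller than those for 50%. Leaving out the shared barcodes, an alternative added after the data were seen, kept the Cxcl9 fold at 20.01 and the Cxcl13 fold at 4.92. Counting error is wide for Cxcl1 and Cxcl14, and the Cxcl9 and Cxcl13 levels of library 1 rest on few cells. Cluster names and doublets among deep cells limit every value given by cluster.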
